A study of Mus musculus and Homo sapiens with 16 samples.

Results

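The genes described here encode the enzymes that lengthen fatty acids in the endoplasmic reticulum: 10 genes of the 39179 in the count tables. They were chosen by name: 6 ELOVL genes (Elovl1, Elovl3, Elovl4, Elovl5, Elovl6 and Elovl7) and 4 genes of the remaining steps (Hsd17b12, Hacd2, Hacd3 and Tecr). The symbols in the files matched 8 of them. Hacd2 and Hacd3, which the files list under the older symbols Ptplb and Ptplad1, were matched by Ensembl identifier.

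Each round of elongation adds a pair of carbons from malonyl-CoA to a fatty acyl-CoA. An ELOVL enzyme condenses the partners and sets which chains are used, HSD17B12 reduces the ketone, a HACD enzyme removes water, and TECR reduces the double bond. In the epidermis, chains made by ELOVL1 and extended further by ELOVL4 are built into the ceramides and acylceramides of the water barrier. The series was built around KLF5, an epithelial transcription factor with zinc fingers, and asks about its place in the skin barrier and in sphingolipid metabolism.

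RNA was sequenced from skin epithelium of C57BL/6 mice carrying the genotype label Klf5+/- (heterozygous, Het) or Klf5-/- (knockout, KO). At E17.5, a late embryonic stage, there were 3 Het and 3 KO libraries, made from peeled and trypsin-treated epidermis sorted as DAPI-, CD45- and Integrin A6+. A further set with HFD in its titles, letters that the labels do not expand, held 2 Het and 2 KO libraries from peeled epidermis that was ground in liquid nitrogen and not sorted. No stage is given for the HFD set, and the labels give neither the deleted part of Klf5 nor any driver of the deletion. Peak lists of KLF5 ChIP-seq, H3K27ac ChIP-seq (a histone mark of active promoters and enhancers) and ATAC-seq (open chromatin) came from 1 sample each of sorted E17.5 epithelium with the genotype label wild type, although the ATAC title reads Het.

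The RNA libraries held 31819010 to 46445546 counts on genes, so that 3 counts corresponded to 0.0646 to 0.0943 CPM, a unit of counts per library size that for genes below also carries TMM factors within each set. Klf5 itself was not lower in the libraries labelled KO: its counts at E17.5 were 8376, 6609 and 6624 in Het against 6934, 7211 and 6501 in KO, and in the HFD set 2523 and 1575 against 2953 and 4956. After TMM scaling its HFD values were higher in KO, at 62.8 and 42.8 CPM in Het against 101 and 120 in KO. The log2 fold change was 1.06 there (edgeR adjusted p = 0.0533) and 0.02 at E17.5 (edgeR adjusted p = 0.982). Since the deleted part is not given, a gene-wide count cannot check the labels, so KO below means the libraries labelled KO, and every direction rests on those labels. The markers of keratinocytes were abundant in all 10 libraries, with 8 basal markers (such as Krt5 and Krt14) summing to 10382 to 29910 CPM and 12 suprabasal markers (such as Krt1 and Krt10) to 30080 to 78273 CPM. In such bulk samples, fewer cells of a type and less RNA per cell cannot be told apart.

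The promoters of the genes on which the comparisons turn are shown first, because KLF5 is the factor under study and its family binds GC-rich elements of the type CCNCNCCC. The sequences are RefSeq promoter windows on GRCm38.p6 (the mm10 build of the files), which held an entry for 9 of the 10 genes. The stretch shown for each gene ends before the gene start in both RefSeq and the count files. Capitals mark matches to CCNCNCCC on either strand. Hsd17b12, on the minus strand (chr2:94157965-94158159), is shown because it was the member with a KLF5 peak over its start. Elovl4 (minus strand, chr9:83806306-83806555), Elovl7 (plus strand, chr13:108214154-108214403) and Elovl1 (plus strand, chr4:118427843-118428092) are shown because their genotype effects differed most between the RNA sets. Elovl5 (plus strand, chr9:77917115-77917363) is shown because its effect lay below 0 in both.
Hsd17b12: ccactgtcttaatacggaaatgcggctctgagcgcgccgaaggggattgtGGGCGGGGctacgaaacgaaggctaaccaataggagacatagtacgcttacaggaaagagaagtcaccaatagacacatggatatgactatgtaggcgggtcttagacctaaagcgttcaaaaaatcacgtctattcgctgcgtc
Elovl4: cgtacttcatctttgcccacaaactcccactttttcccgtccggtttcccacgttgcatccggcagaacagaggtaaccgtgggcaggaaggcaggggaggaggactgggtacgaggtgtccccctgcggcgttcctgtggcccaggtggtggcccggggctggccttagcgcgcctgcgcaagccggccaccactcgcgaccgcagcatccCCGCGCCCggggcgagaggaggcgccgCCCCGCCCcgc
Elovl7: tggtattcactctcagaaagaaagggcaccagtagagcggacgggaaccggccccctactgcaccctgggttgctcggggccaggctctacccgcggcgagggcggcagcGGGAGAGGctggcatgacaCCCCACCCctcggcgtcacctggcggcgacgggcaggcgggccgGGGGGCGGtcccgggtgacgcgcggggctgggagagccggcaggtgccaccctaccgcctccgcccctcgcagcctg
Elovl1: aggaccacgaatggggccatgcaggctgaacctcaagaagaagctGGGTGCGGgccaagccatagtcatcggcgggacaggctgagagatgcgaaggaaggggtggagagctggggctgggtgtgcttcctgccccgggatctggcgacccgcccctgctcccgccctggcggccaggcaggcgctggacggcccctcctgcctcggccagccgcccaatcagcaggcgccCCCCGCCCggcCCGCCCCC
Elovl5: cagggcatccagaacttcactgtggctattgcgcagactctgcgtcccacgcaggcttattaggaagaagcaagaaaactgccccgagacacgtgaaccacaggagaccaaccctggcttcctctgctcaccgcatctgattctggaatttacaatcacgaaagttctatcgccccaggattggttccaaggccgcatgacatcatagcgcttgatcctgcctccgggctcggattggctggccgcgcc
In the 250 bases before the RefSeq start, Hsd17b12 held 1 match, Elovl4, Tecr and Hacd2 held 2 each, and Elovl1, Elovl6, Elovl7 and Hacd3 held 3 each. Matches overlapped each other in Elovl6 and Tecr. Elovl5 held none. A match was therefore present in 8 of 9 members, beside 45.9% of all 32851 windows of the same length. The members' windows were 49.6 to 73.6% G and C, against a median of 52.4% over all windows. A match describes letters only and is not a binding site.

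Levels are compared between genes per length of exon, as RPKM (counts scaled to exon length and to library size). In E17.5 Het libraries the highest mean RPKM belonged to Tecr (158 ± 20.5, SD, n = 3), the reductase shared by every chain length. Elovl4 followed with 112 ± 8.47, then Hsd17b12 with 72.1 ± 3.41, Elovl1 with 55.0 ± 4.69 and Hacd3 with 49.0 ± 1.08. Hacd2 (25.7 ± 1.55), Elovl7 (16.2 ± 1.15), Elovl6 (12.4 ± 0.161) and Elovl5 (6.77 ± 0.696) were lower, and no neighbours in this order overlapped between libraries. Elovl3, known from sebaceous glands and brown fat, had 6, 8 and 7 counts and was close to the floor of 3 counts.

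In the E17.5 KO libraries Tecr again had the highest mean RPKM (148 ± 23.2, SD, n = 3). Elovl4 (70.4 ± 13.2) overlapped Hsd17b12 (65.5 ± 4.85) there. Hacd3 (48.6 ± 0.528) stood above Elovl1 (42.6 ± 0.439), the reverse of their order in Het. The other 5 genes kept their places, at 27.1 ± 1.16 RPKM for Hacd2, 12.9 ± 1.19 for Elovl7, 10.6 ± 0.571 for Elovl6, 5.73 ± 0.349 for Elovl5 and 0.0781 ± 0.0570 for Elovl3.

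In the HFD Het libraries the highest mean RPKM was that of Elovl1 (189 ± 56.0, SD, n = 2). Elovl4 (154 ± 22.7) overlapped both Elovl1 and Tecr (120 ± 25.6) between libraries. Hsd17b12 (61.6 ± 1.71) and Elovl7 (45.8 ± 3.79) came next, Hacd2 (16.2 ± 0.529) and Hacd3 (15.9 ± 1.75) overlapped, and Elovl5 (12.0 ± 1.18), Elovl6 (8.11 ± 2.68) and Elovl3 (3.37 ± 0.391) were lowest. In the HFD KO libraries Elovl1 (316 ± 52.2) and Elovl4 (285 ± 90.0) overlapped at the top, above Tecr (155 ± 39.1). Elovl7 (83.7 ± 24.4) overlapped Hsd17b12 (83.7 ± 8.67), as Hacd2 (22.5 ± 3.01) did Hacd3 (19.3 ± 5.04), and Elovl6 (10.5 ± 1.96), Elovl5 (8.05 ± 0.524) and Elovl3 (2.49 ± 0.580) were lowest. The sets were prepared and sequenced differently, so levels are not on 1 scale between them and were not tested across them.

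Elovl1 and Elovl4, the pair that makes the very long and ultra-long chains of epidermal ceramides, supplied 77.9 to 85.4% of the summed RPKM of the 6 ELOVL genes in every library. At E17.5 Elovl4 was the larger of them in each library, with 51.6 to 57.4% in Het and 45.0 to 53.2% in KO. In the HFD set Elovl1 held 42.5 to 48.3% in Het and 42.8 to 47.7% in KO, and was the larger in all 4 libraries. The summed ELOVL RPKM was 200, 210 and 196 in E17.5 Het and 141, 128 and 158 in KO. It was 351 and 473 in HFD Het and 586 and 826 in KO. These sums, which follow mainly Elovl1 and Elovl4, did not overlap between genotypes in either set, and lay lower in KO at E17.5 and higher in KO in the HFD set.

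**Figure D1:**
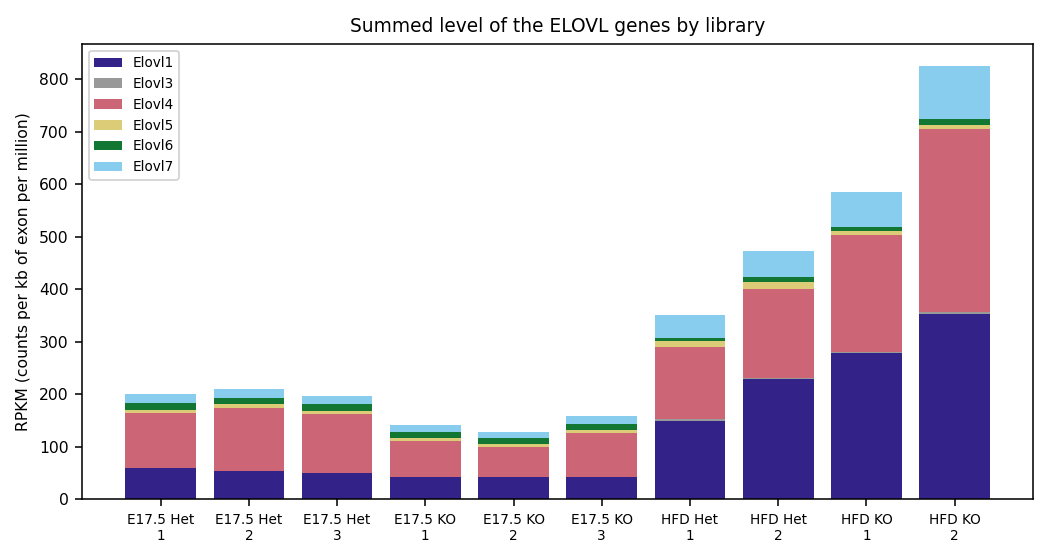
Stacked RPKM (y axis, counts scaled to exon length and library size) of the 6 ELOVL genes in each of the 10 RNA libraries (x axis, group and replicate). Elovl1 and Elovl4 fill 77.9 to 85.4% of each bar. The total runs from 128 to 158 in E17.5 KO against 196 to 210 in E17.5 Het, and from 586 to 826 in HFD KO against 351 to 473 in HFD Het.

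The first comparison asks which elongation genes differ between libraries labelled Klf5-/- and Klf5+/- in sorted E17.5 epithelium. None passed an adjusted p of 0.05 in edgeR's quasi-likelihood test, although 5 ELOVL genes had lower TMM-scaled values in every KO library than in every Het library. Elovl4, the enzyme of ultra-long chains, had 313, 382 and 342 CPM in Het and 206, 165 and 255 CPM in KO. Its KO values all lay below its Het values (log2 fold change -0.73, SE 0.15, edgeR adjusted p = 0.108). Elovl1, which feeds very long saturated chains to ELOVL4 and the ceramide synthases, had 163, 155 and 140 CPM in Het and 113, 109 and 118 CPM in KO. These groups did not overlap either (log2 fold change -0.43, SE 0.085, edgeR adjusted p = 0.0868).

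Elovl7, an elongase of long saturated chains, had 93.1, 94.0 and 82.3 CPM in E17.5 Het and 65.6, 62.3 and 77.9 CPM in KO (log2 fold change -0.39, SE 0.10, edgeR adjusted p = 0.167). Elovl6, which extends palmitate to stearate, had 73.5, 78.8 and 74.7 CPM in Het and 61.9, 56.6 and 66.9 CPM in KO (log2 fold change -0.29, SE 0.090, edgeR adjusted p = 0.241). Elovl5, the elongase of polyunsaturated chains, had 25.9, 22.2 and 24.8 CPM in Het and 19.6, 20.3 and 19.1 CPM in KO (log2 fold change -0.30, SE 0.10, edgeR adjusted p = 0.306). For each of these genes the lowest Het library stood above the highest KO library on this scale. On library totals without TMM factors the groups of Elovl5 overlapped, at 6.01 RPKM in Het replicate 2 and 6.10 in KO replicate 2. Elovl3 had 8, 7 and 1 counts in KO, did not reach the minimum of counts for the test and was left untested at E17.5.

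The genes of the shared steps overlapped between genotypes at E17.5. Hsd17b12, the ketoacyl-CoA reductase, had 165, 182 and 184 CPM in Het and 153, 138 and 170 CPM in KO (log2 fold change -0.20, 95% interval -0.42 to 0.01, edgeR adjusted p = 0.542). Tecr had 229, 229 and 181 CPM in Het and 196, 212 and 164 CPM in KO (log2 fold change -0.16, 95% interval -0.44 to 0.12, edgeR adjusted p = 0.793). For the dehydratase Hacd3 the values were 134, 143 and 133 CPM in Het and 131, 124 and 133 CPM in KO (log2 fold change -0.08, 95% interval -0.25 to 0.10, edgeR adjusted p = 0.860). Its relative Hacd2 had 88.2, 104 and 92.3 CPM in Het and 99.6, 88.4 and 97.4 CPM in KO. That was a log2 fold change of 0.01 with a 95% interval of -0.19 to 0.21 (edgeR adjusted p = 0.994).

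Over the 9 members tested at E17.5, 0 were called, beside 0.0861% of the 15092 genes tested. At an unadjusted p under 0.05 there were 5 members (Elovl1, Elovl4, Elovl5, Elovl6 and Elovl7), beside 10% of all genes. Non-overlapping groups with KO lower were found for 5 members after TMM scaling, beside 8.18% of all genes, and for 4 on library totals (without Elovl5), beside 5.96%. The members' median log2 fold change was -0.29, against 0.01 over all genes, and 8 of 9 lay below 0, beside 47.3% of all genes. Calls depended on 1 library: without KO replicate 3, Elovl1, Elovl4 and Elovl7 passed (edgeR adjusted p from 0.00276 to 0.0281), and 513 genes were called in place of 13. DESeq2 called the same 3 members among 461 genes, and the test without a low-count filter called Elovl1 and Elovl4 among 237 genes.

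**Figure D2:**
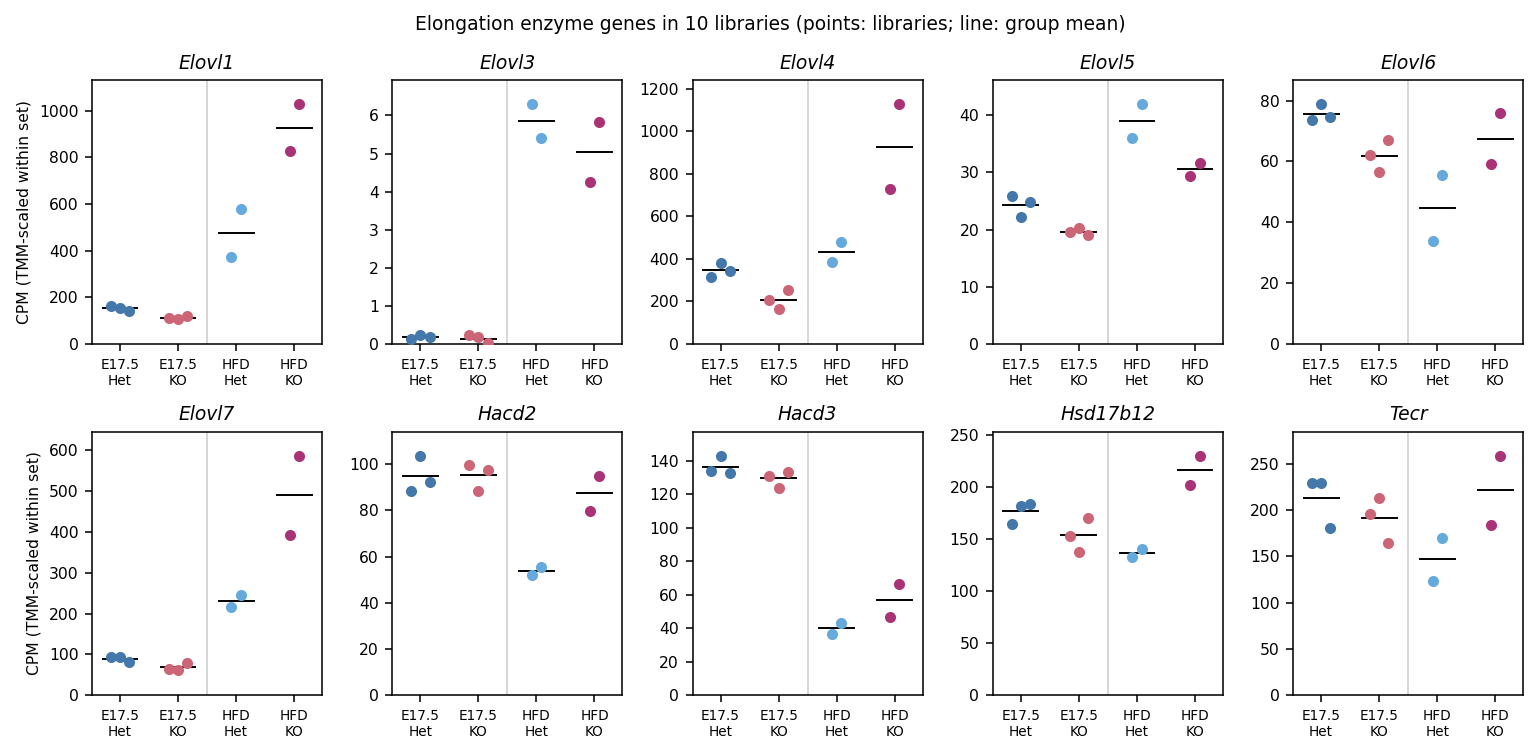
TMM-scaled CPM (y axis, linear from 0) of each elongation gene in the 10 RNA libraries, by group (x axis). Points are libraries and lines are group means. At E17.5 the KO points of Elovl1, Elovl4, Elovl5, Elovl6 and Elovl7 lie below the Het points, and in the HFD set the KO points of 8 genes lie above the Het points.

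The second comparison asks the same of the unsorted HFD epidermis. Again 0 of 10 members passed an adjusted p of 0.05, but here 8 of them had higher TMM-scaled values in both KO libraries than in both Het libraries, and 5 of them on library totals. Elovl7 had 215 and 245 CPM in HFD Het and 393 and 586 CPM in KO (log2 fold change 1.09, SE 0.24, edgeR adjusted p = 0.0561). Elovl4 had 383 and 478 CPM in Het and 728 and 1126 CPM in KO (log2 fold change 1.11, SE 0.28, edgeR adjusted p = 0.0686). Elovl1 had 373 and 578 CPM in Het and 828 and 1028 CPM in KO (log2 fold change 0.96, SE 0.28, edgeR adjusted p = 0.0894). For these 3 genes KO values lay above all Het values, with KO replicate 2 the highest library.

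The dehydratase gene Hacd2 had 52.3 and 55.4 CPM in HFD Het and 79.9 and 94.8 CPM in KO (log2 fold change 0.70, SE 0.17, edgeR adjusted p = 0.0664). Hsd17b12 had 133 and 140 CPM in Het and 202 and 230 CPM in KO (log2 fold change 0.66, SE 0.17, edgeR adjusted p = 0.0716). Both genes had Het libraries that lay close together and below KO. Tecr had 124 and 170 CPM in Het and 184 and 259 CPM in KO (log2 fold change 0.59, SE 0.25, edgeR adjusted p = 0.193). Hacd3 had 36.6 and 43.3 CPM in Het and 46.7 and 66.6 CPM in KO (log2 fold change 0.50, SE 0.23, edgeR adjusted p = 0.217). Gaps between genotypes were narrow beside the spread within KO in Tecr and Hacd3, and on library totals both overlapped, with KO replicate 1 (128 and 15.7 RPKM) below Het replicate 2 (138 and 17.1 RPKM).

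Elovl6 had 34.0 and 55.4 CPM in HFD Het and 59.2 and 75.8 CPM in KO (log2 fold change 0.59, SE 0.28, edgeR adjusted p = 0.226), with groups that only just parted and that overlapped on library totals (10.0 RPKM in Het replicate 2 and 9.13 in KO replicate 1). Elovl5 was the 1 member whose KO libraries were both below Het, with 36.0 and 41.9 CPM in Het and 29.4 and 31.6 CPM in KO (log2 fold change -0.35, SE 0.19, edgeR adjusted p = 0.277). Elovl3, barely present at E17.5, had 253 and 199 counts in HFD Het and 124 and 241 in KO, which at 6.29 and 5.41 against 4.25 and 5.82 CPM overlapped (log2 fold change -0.22, SE 0.33, edgeR adjusted p = 0.712).

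Among the 10 members the 0 calls stand beside 5.5% called of the 15848 genes tested in the HFD set. At an unadjusted p under 0.05 there were 5 members (Elovl1, Elovl4, Elovl7, Hacd2 and Hsd17b12), beside 27.1% of all genes. Higher, non-overlapping KO values were found for 8 of 10 members after TMM scaling, beside 27.4% of all genes, and lower ones for 1 member, beside 32.7%. On library totals there were 5 higher (Elovl1, Elovl4, Elovl7, Hacd2 and Hsd17b12), beside 14.5% of all genes, and 2 lower (Elovl3 and Elovl5), beside 46.7%. The median log2 fold change was 0.63, against -0.01 over all genes, and 8 of 10 lay above 0, beside 49.5% of all genes. The calls moved with single libraries, and so did the number called over all genes. With 1 library left out, its group held 1 library and was assumed to vary like the other, so no member calls are given. The members' median log2 fold change was then 0.51 without Het replicate 1 and 0.79 without Het replicate 2. It was 0.82 without KO replicate 1 and 0.52 without KO replicate 2. DESeq2 and the test without a low-count filter each called the 5 members with an unadjusted p under 0.05. They called 2906 and 2396 genes in all, against 872 as reported. With limma-voom 4 of the 5 were called, without Elovl1, among 1942 genes. The fit of all 10 libraries, from which the differences between sets are taken below, called 7 members in the HFD set, among 3672 genes. The 7 were Elovl1, Elovl4, Elovl6, Elovl7, Hacd2, Hacd3 and Hsd17b12 (edgeR adjusted p from 0.00339 to 0.0484).

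The third comparison tests whether the genotype effects differ between the sets, as the HFD effect minus the E17.5 effect in 1 fit of all 10 libraries. For 6 of 10 members the difference was above 0 at an adjusted p under 0.05, beside 7.07% of the 17260 genes tested (14.7% in either direction). It was 1.85 for Elovl4 on the log2 scale (SE 0.30, edgeR adjusted p = 0.00482), 1.49 for Elovl7 (SE 0.24, edgeR adjusted p = 0.00418) and 1.41 for Elovl1 (SE 0.24, edgeR adjusted p = 0.00541). It was 0.88 for Hsd17b12 (SE 0.17, edgeR adjusted p = 0.00845), 0.90 for Elovl6 (SE 0.25, edgeR adjusted p = 0.0372) and 0.70 for Hacd2 (SE 0.17, edgeR adjusted p = 0.0197). After TMM scaling the KO libraries of Elovl1, Elovl4, Elovl6 and Elovl7 all lay below Het at E17.5 and above Het in the HFD set, and on library totals Elovl6 overlapped in the HFD set.

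The differences for Tecr (0.76, SE 0.26, edgeR adjusted p = 0.0780) and Hacd3 (0.59, SE 0.20, edgeR adjusted p = 0.0742) missed the threshold. For Elovl5 the difference was -0.04 with a 95% interval of -0.41 to 0.34 (edgeR adjusted p = 0.932). For Elovl3 it was 0.11 with an interval of -1.45 to 1.67 (edgeR adjusted p = 0.954), a range too wide to place. The members' median difference was 0.82, against -0.02 over all genes. Elovl1, Elovl4, Elovl7 and Hsd17b12 passed in each of 15 alternatives, with highest adjusted p values of 0.0198, 0.0262, 0.0218 and 0.0362. Elovl6 passed in 7 and Hacd2 in 9. Elovl6 missed without any 1 of the E17.5 Het libraries, E17.5 KO replicates 1 or 2, HFD Het replicate 1 or HFD KO replicate 2 (edgeR adjusted p from 0.0653 to 0.113), and Hacd2 without E17.5 Het replicate 2, E17.5 KO replicate 2, either HFD Het library or HFD KO replicate 2 (edgeR adjusted p from 0.0522 to 0.0667). With library totals in place of TMM scaling both missed as well (edgeR adjusted p = 0.127 and 0.103). Every alternative fitted both sets together with 1 spread per gene, so none of them tests that assumption. Sorting, preparation and library kit differ together between the sets and cannot be told apart, and no stage is given for the HFD set.

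**Figure D3:**
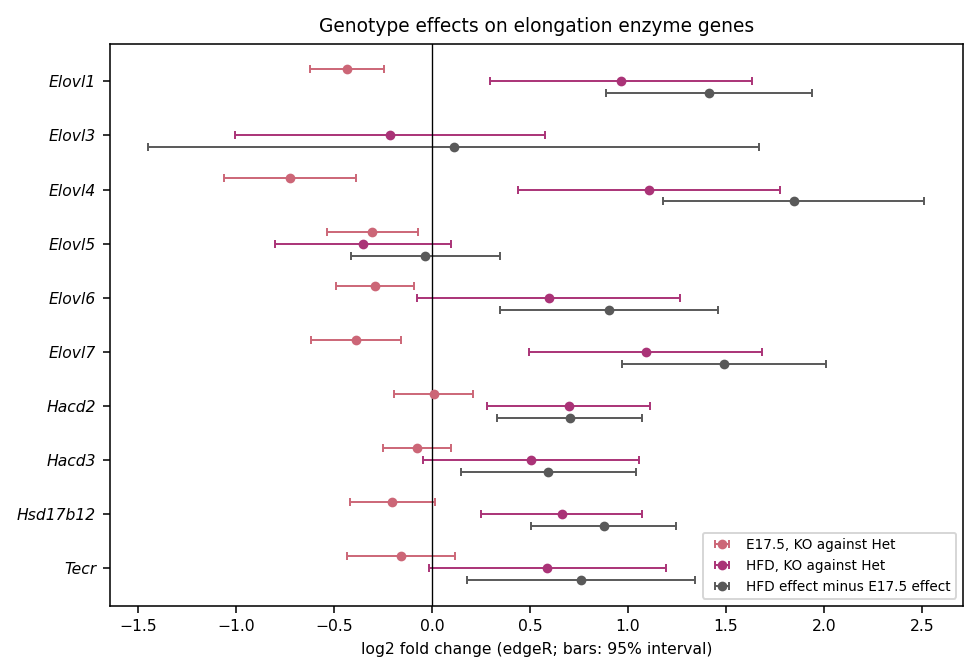
Log2 fold change of KO against Het (x axis, edgeR, with 95% intervals as bars) for each elongation gene in the E17.5 set and the HFD set, with the difference between the sets. The E17.5 values of the tested genes run from -0.73 to 0.01 and the HFD values from -0.35 to 1.11. Elovl4 shows the widest gap, 1.85, and Elovl5 lies below 0 in both.

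Suprabasal keratinocyte markers lay on the same side as most of these genes in both sets, and basal markers in the HFD set only. The 12 suprabasal markers summed to 61921 to 78273 CPM in E17.5 Het and 33394 to 52755 in KO, and to 30080 to 32389 in HFD Het and 64431 to 71756 in KO. Their log2 fold changes were below 0 for 12 of 12 at E17.5 (median -0.58, 0 called) and above 0 for 12 of 12 in the HFD set (median 1.12). In the HFD set 2 were called higher, Krt1 and Cnfn, beside 1.48% of all genes. In the difference 11 of 12 were called higher (median 1.67), beside 7.07% of all genes. The 8 basal markers summed to 22890 to 27118 CPM in E17.5 Het and 25239 to 29910 in KO, which overlapped, and to 10382 to 16188 in HFD Het and 20024 to 21185 in KO. Above 0 lay 6 of 8 basal markers at E17.5 (median log2 fold change 0.08, 0 called) and 8 of 8 in the HFD set (median 0.60, 0 called). In the difference 1 of 8 was called higher (median 0.51), beside 7.07% of all genes. Counts of suprabasal calls moved with single libraries: at E17.5 there were 9 without KO replicate 3, and in the HFD set 0 with either Het library left out, 11 without KO replicate 1 and 10 without KO replicate 2. The suprabasal sum changed sides between the sets as the ELOVL sum did, and its part in the members' results was not tested.

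Markers of other cell types also differed between genotypes. Fibroblast markers (10 genes) summed to 421 to 570 CPM in E17.5 Het and 616 to 690 in KO, and to 16886 to 20419 in HFD Het and 767 to 4702 in KO. Of these, 9 of 9 tested lay above 0 at E17.5 (median log2 fold change 1.69, 0 called) and 10 of 10 below 0 in the HFD set (median -2.92, 0 called). Endothelial markers (7 genes) ran from 365 to 402 CPM in HFD Het to 13.9 to 68.1 in KO, adipocyte markers (8 genes) from 682 to 1195 to 142 to 297, and immune markers (8 genes) from 148 to 161 to 73.6 to 115. The immune markers did not move together: of 7 tested in the HFD set, 4 lay above 0 (Ptprc, Cd74, Cd3e and Cd3g). The 3 below 0 were Tyrobp, Fcer1g and Lyz2, and the median log2 fold change was 0.06. At E17.5 the endothelial sum was at most 3.61 CPM, the adipocyte sum at most 16.5 and the immune sum at most 34.4, and Twist2, Emcn, Adipoq, Plin1, Lep and Cd207 were at 0 in every Het library. Lep was also at 0 in all KO libraries of both sets, and Cd207 in the HFD KO libraries. Hair follicle markers (10 genes) summed to 1303 to 1427 CPM in HFD Het and 953 to 958 in KO, and sebaceous markers (10 genes) overlapped, at 426 to 458 and 419 to 576. Krt17 made up much of the hair follicle sum, with means of 709 CPM in Het and 781 in KO. Of the 10 hair follicle markers, 7 lay below 0 (median log2 fold change -1.56). Krt25, Krt27, Krt71, Krt73 and Msx2 were called lower, beside 4.02% of all genes. Sebaceous markers split, with 5 below 0 and 5 above, and Mgst1 was called lower. The erythroid sum (6 genes) was 15.8, 93.9 and 1118 CPM in E17.5 Het and 266, 742 and 2729 in KO, highest in KO replicate 3. It was 897 to 944 CPM in HFD Het and 322 to 416 in KO, the skeletal muscle sum (6 genes) 788 to 2743 and 95.5 to 880, and the melanocyte sum (6 genes) 171 to 210 and 127 to 234. In the HFD set 2 of 7 endothelial, 2 of 7 adipocyte, 2 of 7 immune and 4 of 6 erythroid markers tested were called lower. Of the skeletal muscle and melanocyte markers 0 were called. These counts stand beside 4.02% of all genes called lower. The part of these markers in the members' values was not tested in either set.

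**Figure D4:**
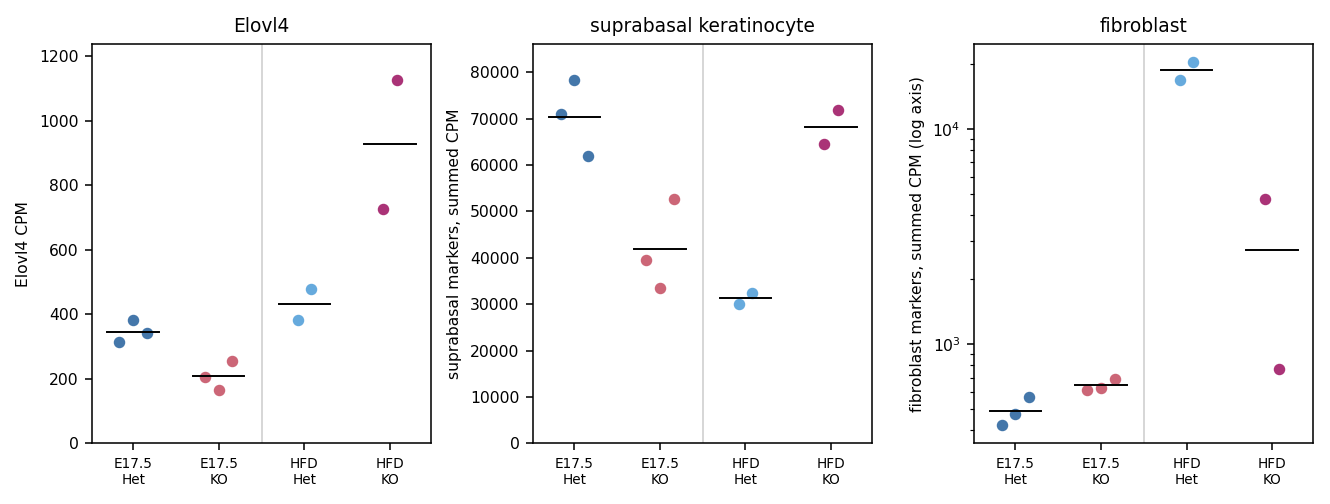
CPM of Elovl4, summed CPM of 12 suprabasal keratinocyte markers and summed CPM of 10 fibroblast markers (log axis) in each RNA library, by group. Points are libraries and lines are group means. Elovl4 and the suprabasal sum both lie lower in KO at E17.5 and higher in KO in the HFD set, while the fibroblast sum is 16886 to 20419 in HFD Het and 767 to 4702 in HFD KO.

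Across the 10 libraries, with each set centred on its own mean of log2(CPM + 1), the genes most like each member were read from 12173 genes with at least 1 CPM on average in both sets. The genes share the scaling and the genotype split of these libraries, so the correlations are descriptions. Elovl4 was most like Dmkn (r = 0.992) and Dsg1a (r = 0.992), genes of differentiating keratinocytes, and Elovl1 was most like Sbsn (r = 0.985) and Asprv1 (r = 0.983), which belong to the same layers. Elovl7 was most like Agpat3 (r = 0.995) and Cldn1 (r = 0.992), an acyltransferase and a tight junction claudin. Hsd17b12 was most like Cd24a and Serpinb5 (r = 0.992 each), Hacd2 like Fbxo34 (r = 0.987) and Tuba1c (r = 0.986), and Tecr like Stk40 (r = 0.982) and H2afy (r = 0.974). Elovl6 was most like Ocrl (r = 0.982) and A430105I19Rik (r = 0.979), and Hacd3 like Gm16136 (r = 0.989) and Ppp3ca (r = 0.982). Elovl5 had Cyp2f2 (r = 0.940) and Pdgfb (r = 0.898) nearest, and r from -0.61 (Hacd2) to -0.03 (Elovl6) with the other members. With all of these members except Hacd2, the pooled values join sets whose r differed in sign. Over the 6 E17.5 libraries Elovl5 had r of 0.849 with Elovl1, 0.653 with Elovl4, 0.664 with Elovl6 and 0.685 with Elovl7, and over the 4 HFD libraries -0.601, -0.666, -0.374 and -0.717. With Hsd17b12, Tecr and Hacd3 its r was 0.467, 0.434 and 0.271 at E17.5, and -0.808, -0.436 and -0.470 in the HFD set. Among members the closest pairs were Elovl1 with Elovl6 (r = 0.953), Elovl7 with Hsd17b12 (r = 0.950) and Elovl4 with Elovl7 (r = 0.946). The partners ranked only 50, 171 and 126 among the 12173 genes by likeness to the first-named gene. Elovl3 was below the minimum level.

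Other genes of the pathway were counted from fixed lists. Of the 3 remaining elongation genes (Elovl2, Hacd1 and Hacd4), 0 of 3 tested were called at E17.5 and 0 of 2 in the HFD set. At E17.5, 2 of 3 lay above 0 (median log2 fold change 0.33). Both genes tested in the HFD set lay below 0, unlike most members. The log2 fold change was -1.08 for Hacd1 (edgeR adjusted p = 0.0593) and -1.64 for Hacd4 (edgeR adjusted p = 0.0946). In the difference 3 of 3 lay below 0 and 1 was called, beside 7.61% of all genes called lower. This was Hacd1, a dehydratase best known from muscle (log2 -1.39, edgeR adjusted p = 0.0173), opposite in sign to Hacd2. That call was lost without HFD Het replicate 1. Of 16 genes for malonyl-CoA supply, fatty acid synthase and the desaturases, 0 were called in either set, with medians of -0.11 at E17.5 and -0.23 in the HFD set. Of all genes tested, 0.0861% were called at E17.5 and 5.5% in the HFD set. In the difference Acly, which makes cytosolic acetyl-CoA, was called higher (log2 0.79, edgeR adjusted p = 0.0235) and Fads1, a desaturase of polyunsaturated chains, lower (log2 -0.93, edgeR adjusted p = 0.0374). These calls, 1 higher and 1 lower of 16, stand beside 7.07% and 7.61% of all genes, so the list did not stand out. With library totals Acly was not called and 4 genes were called lower, and 0 genes of this list were called without E17.5 Het replicate 2, E17.5 KO replicates 1 or 2, either HFD Het library or HFD KO replicate 2.

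The genes that activate very long chains or build them into ceramides and esters had medians on the same side as the members. At E17.5, 23 of 34 tested lay below 0 (median -0.24), beside 47.3% of all genes. None of them was called, and 19 had an unadjusted edgeR p under 0.05, beside 10% of all genes. In the HFD set 29 of 38 lay above 0 (median 0.62), and 7 rose and 1 fell, beside 1.48% of all genes higher and 4.02% lower. Among the 6 with the lowest p, Alox12b (log2 1.43, edgeR adjusted p = 0.039), Pnpla1 (1.05, adjusted p = 0.039), Dgat2 (1.08, adjusted p = 0.0402), Cers3 (1.28, adjusted p = 0.0418) and Cyp4f39 (1.36, adjusted p = 0.0449) rose, and Abcd2, a peroxisomal transporter, fell by 3.31 (edgeR adjusted p = 0.0339). Cers3 joins ultra-long chains to sphingoid bases, Cyp4f39 hydroxylates their ends, Pnpla1 makes acylceramides and Alox12b oxidises them. In the difference 17 of 38 were called higher and 4 lower (median 0.78), beside 7.07% and 7.61% of all genes, led by Sdr9c7 (1.59, edgeR adjusted p = 0.00179), Alox12b (2.15), Cyp4f39 (2.28), Dgat2 (1.97) and Pnpla1 (1.65). The HFD count of genes that rose was 0 with either Het library left out, 18 without KO replicate 1, 12 without KO replicate 2, 4 with library totals and 16 with DESeq2. The count of higher differences was 11 without HFD Het replicate 1 or HFD KO replicate 2. At E17.5, 12 genes of the list were lower without KO replicate 3, and 9 with DESeq2.

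Of 16 regulators of fatty acid genes, 0 were called at E17.5 and 2 fell in the HFD set, the nuclear receptor genes Nr1h3 (log2 -2.52, edgeR adjusted p = 0.0358) and Pparg (-1.88, adjusted p = 0.044), and 0 were called when either Het library was left out. Of all genes tested, 4.02% were called lower in the HFD set. In the difference Nr1h3 and Pparg were again lower (-2.14 and -3.97, edgeR adjusted p = 0.0452 and 0.00281), beside higher values for Klf5 (1.06, edgeR adjusted p = 0.0159) and Klf4 (1.18, edgeR adjusted p = 0.0281). Of all genes, 7.07% were called higher in the difference and 7.61% lower. At E17.5 the log2 fold change was -0.36 for Nr1h3 (edgeR adjusted p = 0.921) and 2.12 for Pparg (edgeR adjusted p = 0.109). Both were low there, with means of 0.522 CPM in Het and 0.408 in KO for Nr1h3, and 0.355 and 1.59 for Pparg. Their differences between the sets rest in part on these low levels. Without single libraries in turn, the difference count ran from 0 to 3 higher and from 1 to 2 lower.

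The chromatin lists place the members at E17.5 by peaks within 5 kb of the gene start. The fold enrichment and -log10 q of each peak are the authors' values. Over Hsd17b12 a KLF5 peak (chr2:94157934-94158273) covered the start, with its summit 112 bases upstream, a fold of 4.23 and a -log10 q of 5.59. It lay wholly inside an H3K27ac peak of fold 7.46, above 99.4% of the peaks in that list, and inside an ATAC peak of fold 12.4, above 98.5%. The 1 CCNCNCCC match in the Hsd17b12 sequence printed above lay within the KLF5 peak, at positions -200 to -193 from the RefSeq start. Hsd17b12 was the 1 member of 10 with a KLF5 peak in the window, beside 22.9% of genes tested at E17.5 and 11.0% of all genes. It was not among the 5 genes whose groups parted in the E17.5 RNA.

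The other 9 members had their nearest KLF5 peak 11.7 to 437 kb away. For 3 of them it lay inside the gene, at 11.7 kb from the start in Hacd2, 24.2 kb in Elovl4 and 38.1 kb in Elovl5. The Elovl4 peak (fold 3.55) overlapped an H3K27ac and an ATAC peak, and the Elovl5 peak overlapped neither H3K27ac nor ATAC peaks. A KLF5 peak 13.2 kb upstream of Tecr had a fold of 5.68 and a -log10 q of 17.9. The median fold over the 6472 KLF5 peaks was 3.99. No peak was assigned to a gene by anything but distance.

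H3K27ac peaks lay within 5 kb of 7 of 10 members, beside 63.5% of genes tested. They covered the start of Hacd3 (fold 5.26), Tecr (5.20), Hacd2 (4.83), Elovl7 (4.06) and Elovl1 (3.89) besides Hsd17b12, and lay 1.17 and 3.87 kb into Elovl6 (folds 3.65 and 2.79). Elovl4 and Elovl5 had none in the window although both were transcribed, nor did Elovl3. Their nearest H3K27ac peaks were 16.7 kb (Elovl4), 5.55 kb (Elovl5) and 20.4 kb (Elovl3) from the start. Elovl4 thus had the highest E17.5 RPKM of the ELOVL genes without a called peak of this mark at its start.

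ATAC peaks lay within 5 kb of all 10 members, beside 84.4% of genes tested, and covered the start of 9. After Hsd17b12 the highest folds were those of Elovl5 (9.12), Hacd3 (8.38), Elovl7 (7.38) and Hacd2 (7.02). The start peaks of Elovl1 (4.79), Elovl4 (4.51) and Elovl6 (3.04) lay below the list's median fold of 5.51. Elovl3, the gene near the count floor, had its ATAC peak 3.33 kb downstream of its start (fold 3.95) and none over it. With 1 sample for each assay these values have no replicate error.

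**Figure D5:**
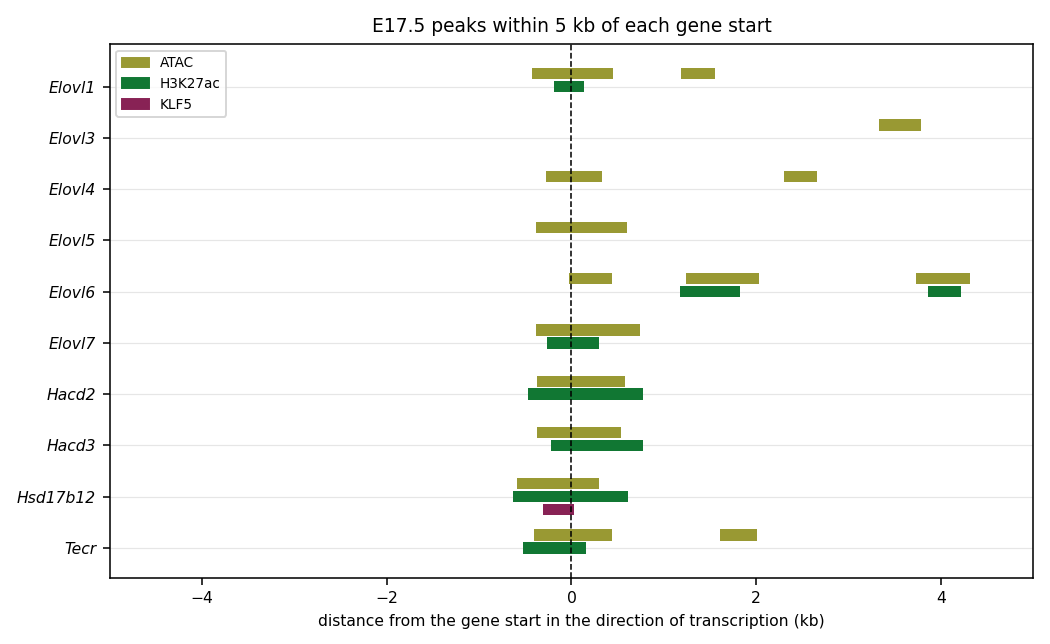
E17.5 peaks within 5 kb of each elongation gene's start (x axis, kb in the direction of transcription, dashed line at the start) for ATAC, H3K27ac and KLF5. Bars span each deposited peak. ATAC bars cross the start in 9 genes and H3K27ac bars in 6, and the single KLF5 bar lies at Hsd17b12.

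By position in the count files (mm10), the members are spread over 8 chromosomes. Elovl4 (ENSMUSG00000032262, chr9:83778692-83806277, minus strand), Elovl5 (ENSMUSG00000032349, chr9:77917364-77984519, plus strand) and Hacd3 (ENSMUSG00000033629, chr9:64986985-65021717, minus strand) share chromosome 9. Elovl1 (ENSMUSG00000006390, chr4:118428093-118432953, plus strand) overlaps Cdc20 on the other strand, which had up to 5928 counts. Elovl3 (ENSMUSG00000038754, chr19:46131897-46135694, plus strand) overlaps Pitx3, which had at most 48. The strand setting of the counting is not given, so the values of Elovl1 and Elovl3 are less certain than the others. The remaining members are Elovl6 (ENSMUSG00000041220, chr3:129532386-129638495, plus strand), Elovl7 (ENSMUSG00000021696, chr13:108214404-108287105, plus strand), Hacd2 (ENSMUSG00000035376, chr16:35022421-35109175, plus strand), Hsd17b12 (ENSMUSG00000027195, chr2:94032689-94157964, minus strand) and Tecr (ENSMUSG00000031708, chr8:83571700-83594491, minus strand). None of these overlaps another annotated gene.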

How the data were processed

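For every RNA library the authors deposited 1 file of raw counts on Ensembl genes, made with STAR 2.6.0b and HTSeq on mm10 per the submitters' processing notes. The RPKM values the authors deposited beside the HFD counts equalled counts per exon length and file total within a relative 1e-09, and were used in no test. Own RPKM values divide the counts by those exon lengths and by the total on genes. The deposited peak lists, for which the submitters' processing notes name MACS2, give a fold enrichment (a ratio over local background) and −log10 p and q values. The word MERGE in the peak names leaves unsaid what was pooled, and no source used here names the control library. Reads on no gene (13.4 to 16.9% of each library) stayed out of library sizes.

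Each set was fitted alone in edgeR 4.0.16 (R 4.3.3) with TMM scaling, filterByExpr, a robust quasi-likelihood fit and Benjamini-Hochberg adjustment over all genes tested, at a threshold of 0.05. The difference between sets was tested as a contrast of 4 groups with all 10 libraries fitted together. That fit assumed 1 spread per gene for both sets. In the separate fits the SE of Elovl1, for example, was 0.085 at E17.5 and 0.28 in the HFD set. SE is the log2 fold change over the square root of F. DESeq2 1.42.0, limma-voom (limma 3.58.1), library totals, other filters, a replicate block and leaving out each library were alternatives; overlap of groups on library totals was added after seeing the data. On simulated counts with 100 genes changed by 1 on the log2 scale, the E17.5 test over 15092 genes recovered 93% and the HFD test over 15848 genes 23%. For a change of 2 they recovered 100% and 87%, with 24 and 25 false calls. The simulated libraries varied gene by gene, with no shift shared by the genes of a library. Changes below 1, such as those of the members at E17.5, were not simulated. The recovered shares therefore do not give the power for the members. The labels do not tie the libraries to separate animals. The p-values therefore measure the spread between the libraries at hand, and that may be technical.

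The members and lists were chosen with earlier results of these data known. All 10 members are named; of pathway lists, the genes past the threshold (at most 6 a list and comparison, lowest p first); of similar genes, the 2 with the highest correlation. A gene that this rule selects in 1 list is not reported here. The planned comparison of protein sequences was not run. Peaks of HaCaT cells were not used here.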

Additional observations from a re-analysis of the deposited data

Results flagged for a closer look

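For 6 members the genotype effect in the HFD set differed from that at E17.5 by a test of the difference itself, the edgeR contrast over all 10 libraries. The log2 difference (HFD minus E17.5) was 1.85 for Elovl4 (edgeR adjusted p = 0.00482), 1.49 for Elovl7 (edgeR adjusted p = 0.00418) and 1.41 for Elovl1 (edgeR adjusted p = 0.00541). It was 0.90 for Elovl6 (edgeR adjusted p = 0.0372), 0.88 for Hsd17b12 (edgeR adjusted p = 0.00845) and 0.70 for Hacd2 (edgeR adjusted p = 0.0197). Of all genes tested, 14.7% passed in this contrast in either direction. No member passed in the edgeR fit of either set alone. The fit of all 10 libraries called 7 members in the HFD set and 0 at E17.5, among 3672 and 3 genes called. The sets differ in sorting, preparation and library kit, and the fit assumed 1 spread per gene for both.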

How the results depend on the processing

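Counts of genes called moved with the setting. At E17.5 there were 13 as reported, 461 with DESeq2, 6 with library totals (4 higher and 2 lower, against 5 and 8), 237 without a filter, 2 at a mean of at least 1 CPM, 0 with limma-voom (1530 at an unadjusted p under 0.05), 3 with all 10 libraries in 1 fit, 42 with the replicate block, and 0 to 513 when a library was left out (0 without KO replicate 1, with 1003 at an unadjusted p under 0.05). In the HFD set there were 872 as reported, 2906 with DESeq2, 2396 without a filter, 1942 with limma-voom, 3672 in the fit of all 10 libraries, 1340 with library totals (138 higher and 1202 lower, against 235 and 637), 1520 with the replicate block, and 19 to 5389 when a library was left out. In the difference there were 2534 as reported, 3677 with DESeq2, 1266 to 4467 when a library was left out, 2532 with the replicate block, and with library totals 569 higher and 2469 lower, against 1221 and 1313. Library totals moved the median of all genes to 0.08 at E17.5, -0.23 in the HFD set and -0.31 in the difference. The replicate block called 0 members at E17.5, 5 in the HFD set (Elovl1, Elovl4, Elovl7, Hacd2 and Hsd17b12) and 8 in the difference (also Elovl6, Hacd3 and Tecr). Libraries with the same number did not deviate together throughout (correlations 0.07, -0.13 and 0.28 at E17.5, 0.22 in the HFD set), so the numbers were not taken to pair the libraries. Members whose groups did not overlap numbered 5 lower at E17.5 and 8 higher in the HFD set after TMM scaling, and 4 and 5 on library totals, a scale added after seeing the data.

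Signs of the members held except near 0. When a library was left out, Hacd2 at E17.5 ran from -0.040 to 0.076 (0.01 as reported), Elovl3 in the HFD set from -0.43 to 0.015 (-0.22), Elovl3 in the difference from -0.37 to 0.53 (0.11) and Elovl5 in the difference from -0.13 to 0.051 (-0.04). With library totals Elovl3 in the difference was -0.19. The causes were not tested. Of the peak counts, members with a KLF5 peak stayed at 1 throughout, those with H3K27ac were 8 in a 10 kb window, and those with ATAC were 9 in a 2 kb window or at a -log10 q of at least 5. On the simulated counts, with 2 libraries a group, the HFD test recovered 23% of changes of 1 on the log2 scale. What it would recover in the real libraries was not tested.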
